A study of Mus musculus with 7 samples.

Results

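Cycling barcodes of the Lat-KO DN3 γδ- library were those with at least 4 UMIs, in sum, of Mki67, Top2a, Rrm2 and Tyms. A UMI is a tag that marks a single captured transcript. The 4 genes code for a chromosome coating protein of dividing cells, DNA topoisomerase II alpha, a subunit of ribonucleotide reductase and thymidylate synthase. The library held 8691 barcodes. After removal of barcodes with fewer than 1000 detected genes, more than 10% mitochondrial UMIs or more than 1 UMI of the B cell genes Cd79a, Cd79b and Ms4a1, 6298 remained, and 362 of them were cycling by this rule. Another 5418 had at most 1 UMI of the 4 genes and are called low barcodes, while 518 lay between and entered neither class. Over all 7 libraries of the series the same rule found 39575 cycling barcodes among 66446 kept of 90016.

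The series measured RNA of single sorted mouse thymocytes with droplet 3′ libraries, 1 library per group, to ask what signals through the γδ TCR contribute to γδ lineage commitment. Thymocytes of 5 libraries came from WT C57BL/6 mice of 6 to 8 weeks and those of 2 libraries from C57BL/6 mice of genotype Lat-/- TCRd-H2BEGFP, which lack the adaptor LAT and carry a fluorescent reporter in the TCR δ gene. All 7 received 500 splenic B cells as an internal standard. Lat-KO DN3 γδ- were CD25+ CD44- thymocytes without γδ TCR at the surface, Lat-KO DN3 γδint had intermediate surface γδ TCR, WT DN3a were sorted before and WT DN3b γδ- after the rise in CD71, the transferrin receptor. Thymi were pooled and no library separates animals, WT thymocytes were depleted of CD4 and CD8 cells with beads before the sort, and Lat-KO thymocytes were sorted without that step. The age of the Lat-KO mice was not given in the sources used. The labels of the WT mice name no reporter, so genotype, reporter, any difference in age, preparation and library cannot be told apart between WT and Lat-KO.

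Thymocytes at the DN3 stage rearrange the genes of the TCR β, γ and δ chains. A cell with a productive β chain pairs it with the pre-TCR α chain encoded by Ptcra. Signals from this pre-TCR pass through LAT and start a burst of divisions, the DN3a to DN3b transition, in which Rag gene transcripts, Ptcra and Notch target genes decline. In dividing cells, E2F factors drive genes of DNA replication in S phase, and the MuvB complex with B-MYB and FOXM1 drives genes of mitosis later in the cycle.

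The 7 libraries held 49407750 to 375688164 UMIs each. That of Lat-KO DN3 γδ- held 65081289, of which 6239795 were in cycling and 38742904 in low barcodes. Median depth was 16780 UMIs (quartiles 13237 and 21381) and 4127 detected genes per cycling barcode, against 6748 UMIs and 2517 genes per low barcode. Mean UMIs per barcode were higher in cycling barcodes by 1.27 on the log2 scale, so a gene with a lower level relative to all UMIs usually did not have fewer UMIs per barcode. Among the 7884 measured genes, 161 had fewer UMIs per cycling than per low barcode. Median mitochondrial shares were 4.48% and 5.81%, and ribosomal protein genes took 26.8% and 27.7% of UMIs. Barcode sequences that also occurred in another library made up 11 cycling (3.04%) and 117 low barcodes (2.16%). Among barcodes of at least 4000 UMIs thinned to that number, UMIs of Xist together with a Y-linked gene, a sign of a droplet with cells of both sexes, were present in 14 of 359 cycling (3.90%, interval 2.15 to 6.46) and 115 of 5212 low barcodes (2.21%). The part of shared droplets in the results was not tested beyond the alternatives given after the report.

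Levels are given as CPM, the UMIs of a gene per 1000000 UMIs summed over the barcodes of a class, and differences as the log2 ratio of the CPM of cycling over low barcodes. All intervals are exact 95% intervals that cover counting error only and say nothing of other animals. With 1 library per group no test was made. A gene counted as measured with a mean CPM of both classes of at least 10, and as higher or lower from a 2-fold difference. The contrast of cycling with low barcodes is the one that chose the members, so its values describe them. A gene rare in low barcodes passes the filter through its level in cycling barcodes alone, so a count over the measured genes of a list describes them and is no support for the list.

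The members were T-lineage cells by their markers. The 10 T cell markers summed to 9155 CPM in cycling, 12424 CPM in low and 3829.7 CPM in B-like barcodes, which are those with at least 10 UMIs of the 3 B cell genes. Cd3g, a chain of the CD3 complex, stood at 3836 CPM in cycling and 4194 CPM in low barcodes. Among the 10, Cd2 was near 0, at 0.160 and 0.361 CPM. The targeted gene Lat was at 0.801 (0.260 to 1.87) CPM in cycling and 5.60 (4.88 to 6.40) CPM in low barcodes, against 422 and 667 CPM in WT DN3a and 0.396 and 1.15 CPM in Lat-KO DN3 γδint. The log2 ratio of cycling barcodes of Lat-KO DN3 γδ- over those of WT DN3a was -9.04 (-10.67 to -7.82).

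Markers of other cells were summed for each class. The 11 B cell markers summed to 104 CPM in cycling and 192 CPM in low barcodes, with their low level partly set by the filter on B cell genes. The 6 erythroid markers summed to 0.321 CPM in cycling barcodes, with 4 of them at 0. The 8 myeloid markers summed to 172 CPM in cycling and 196 CPM in low barcodes, with Csf1r, S100a8 and S100a9 at 0. Most of the sum was Cst3, at 135 and 146 CPM, and Lyz2, at 34.1 and 46.5 CPM. The 6 NK markers summed to 170.2 and 153 CPM, with Klrb1c, Ncr1, Klrd1 and Eomes at 0. Nearly all of this sum was Nkg7, a granule protein gene of cytotoxic cells. The 5 plasmacytoid markers, which include Ccr9, summed to 432 and 658 CPM with Siglech at 0. Most of this was Bst2, at 328 and 415 CPM, and Tcf4, an E protein, was at 72.9 and 114 CPM. The 6 stromal and epithelial markers summed to 76.4 and 147 CPM, mostly from Epcam. The 14 genes of the earlier DN1 and DN2 stages summed to 32.1 CPM in cycling and 24.7 CPM in low barcodes. Among them Kit, the receptor of stem cell factor, was at 5.93 CPM, Cd44 at 0.641 CPM, and Mpo, Gata2, Cd34 and Fcgr3 at 0. The part of other cells in the results was not tested beyond these values.

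The members spanned a wide range of the rule genes. UMIs of the 4 genes per cycling barcode ran from 4 to 127 with a median of 16 and quartiles of 6 and 44.8. There were 53 barcodes at 4 UMIs, just inside the threshold, and 141 at 3 UMIs, just outside it. Tyms was detected in 93.4% of members, Top2a in 90.6%, Rrm2 in 75.1% and Mki67 in 66.6%. All 4 genes were detected in 184 members, 3 in 96, 2 in 73 and 1 in 9. Mki67 and Top2a peak late in the cycle and Rrm2 and Tyms are genes of S phase, and a barcode may reach the threshold by either pair.

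The levels below are grouped by the UMIs that chose the members and describe the rule. Median depth rose with them, from 6587 UMIs per barcode without a rule UMI to 21606 in the last bin. The 44 genes of origin licensing and of the replication fork summed to 1508 CPM in the 4101 barcodes without a rule UMI, 3013 CPM in the 141 barcodes at 3 UMIs, 4035 CPM in the 53 at 4 UMIs and 7027 CPM in the 80 barcodes with 16 to 40 UMIs. In the 103 barcodes with 41 to 127 UMIs they summed to 5675 CPM. The 56 genes of mitosis and the spindle stood at 530.3 CPM without a rule UMI, 1256 CPM at 3 UMIs, 1140.2 CPM at 4 UMIs, 6172 CPM at 16 to 40 and 10437 CPM at 41 to 127. Ptcra was at 776 CPM without a rule UMI, 494 CPM at 4 UMIs and between 439 and 472 CPM beyond. Ccr9, a chemokine receptor of thymocytes, was at 124 CPM without a rule UMI and between 10.7 and 32.7 CPM in the cycling bins. Levels at 3 rule UMIs lay between those of the low and the cycling bins for Ptcra, Rag1, Notch3, Btg1 and Ccr9. Trbc1, a TCR β constant gene, was at 782 CPM without a rule UMI, 1519 CPM in the 57 barcodes with 8 to 15 UMIs and 915 CPM at 41 to 127, so its highest level fell in the middle of the range. Ccnd2, cyclin D2, was at 365 CPM at 4 UMIs and 152 CPM in the last bin, and the linker histone Hist1h1b at 14.9 CPM and 288 CPM.

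**Figure D1:**
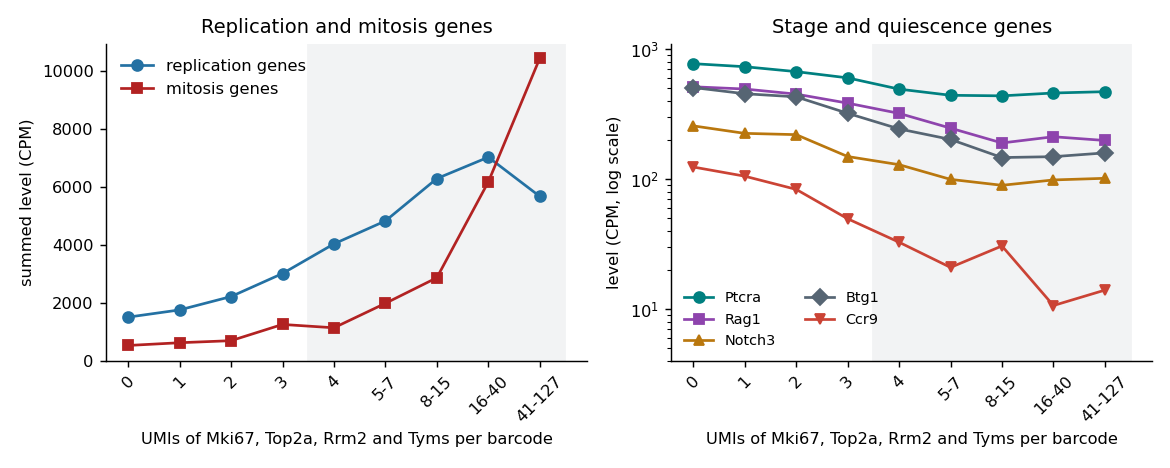
Levels in barcodes of Lat-KO DN3 γδ- grouped by their UMIs of the 4 rule genes (horizontal axis), as summed CPM of replication and mitosis genes (left) and as CPM of 5 single genes on a log scale (right). The shaded bins are the cycling barcodes; replication genes peak at 7027 CPM in the bin of 16 to 40 UMIs and mitosis genes reach 10437 CPM in the last bin.

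Across all genes, 457 of 7884 measured genes (5.8%) were at least 2-fold higher in cycling barcodes and 362 (4.59%) at least 2-fold lower, so that 55.8% of these genes were higher. The median ratio over all measured genes was -0.12, and 4732 of them had a ratio below 0. The shares of 5.8% and 4.59% apply to each count of list genes in this contrast. Scaling by TMM, which centres the bulk of the genes, shifted every ratio up by 0.12, left 241 lower genes and put 69.3% of the genes on the higher side. Thinning every barcode to 4000 UMIs before the rule put 44.6% there, with 720 lower genes. Requiring a mean CPM of 25 put 63.2% there.

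Genes were ranked by ratio among those with a mean CPM of at least 25 and at least 10 UMIs in each class, without the 4 rule genes and without mitochondrial, ribosomal and predicted genes. Measured genes outside these limits could rank higher, as did Esco2, a cohesin acetyltransferase named after its values were seen, at 56.1 and 0.0774 CPM with 3 UMIs in low barcodes and a log2 ratio of 9.50 (7.94 to 11.79). Within the limits most of the 10 highest were genes of cell division. Hmmr, which codes for a microtubule-binding protein of the spindle, was at 91 CPM in cycling and 0.284 CPM in low barcodes, a log2 ratio of 8.32 (7.47 to 9.34). Pbk, a mitotic kinase, was at 111 and 0.568 CPM, a log2 ratio of 7.61 (7.0 to 8.29). Ccna2, the cyclin of S phase and of entry into mitosis, was at 135 and 0.774 CPM, a log2 ratio of 7.45 (6.93 to 8.03). The other 7 of these 10 were Mxd3, Pclaf, Pimreg, Nusap1, Aurkb, Ube2c and Neil3, with log2 ratios of 6.46 to 7.27. They include a partner of MAX in S phase cells (Mxd3), a PCNA-binding protein (Pclaf), a spindle protein (Nusap1), a kinase of chromosome segregation (Aurkb) and the ubiquitin-conjugating enzyme of the anaphase-promoting complex (Ube2c).

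The 10 lowest ratios within the same limits belonged to a more varied set. Scn4b, a sodium channel subunit, was at 7.05 CPM in cycling and 45.6 CPM in low barcodes, a log2 ratio of -2.69 (-3.16 to -2.26). Ccr9 was at 18.9 and 119 CPM, a log2 ratio of -2.66 (-2.93 to -2.39). Mxd4, a partner of MAX that opposes MYC, was at 60.1 and 263 CPM, a log2 ratio of -2.13 (-2.28 to -1.98). Ltb, the lymphotoxin β chain, had a log2 ratio of -1.95, and Ypel3, a gene linked to growth arrest, one of -1.74. The others of these 10 were Fam163b, Calcoco1, Mirt1, Arl5c and Adamts17, between -2.07 and -1.75. In UMIs per barcode, Ccr9 was at 0.326 in cycling and 0.853 in low barcodes and Mxd4 at 1.04 and 1.88.

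All 10 measured genes of origin licensing, of 11 listed, were at least 2-fold higher in cycling barcodes, with a median log2 ratio of 2.23, beside 5.8% of all measured genes. Licensing loads the MCM helicase onto origins before S phase. Cdc6, the loading factor, was at 55 CPM in cycling and 1.60 CPM in low barcodes, a log2 ratio of 5.10 (4.71 to 5.52). Mcm6, the MCM subunit with the most UMIs, was at 404 and 128 CPM, a ratio of 1.66 (1.59 to 1.73). Mcm2 had the lowest ratio of the list, 1.27 (1.16 to 1.37). Gmnn, which blocks a second round of licensing, was at 196 and 22 CPM, a ratio of 3.15 (3.03 to 3.28).

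Of 33 replication fork genes, all measured, 29 were at least 2-fold higher and none 2-fold lower, with a median log2 ratio of 1.94. Pcna, the sliding clamp of the polymerases, was at 361 CPM in cycling and 65.2 CPM in low barcodes, a ratio of 2.47 (2.39 to 2.55). Cdc45, a part of the active helicase, had the highest ratio, 4.97 (4.59 to 5.37). Lig1, the ligase that joins Okazaki fragments, was at 211 and 9.96 CPM, a ratio of 4.40 (4.24 to 4.57). Rpa3, Gins4, Uhrf1 and Prim2 were the 4 below 2-fold, and Prim2, a primase subunit, differed least, with 74.8 and 69.8 CPM and a ratio of 0.10 (-0.04 to 0.24).

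The start regions of Cdc6 and Lig1 are shown because, among replication genes with E2F-type letters there, these 2 had the highest ratios. Windows run from 250 bases before to 50 after the RefSeq start (GRCm38.p6), and capitals mark TTTCCCGC, TTTGGCGC, TTTGGCGG or TTTCGCGC on either strand.
Cdc6, chr11:98907901-98908200, plus strand: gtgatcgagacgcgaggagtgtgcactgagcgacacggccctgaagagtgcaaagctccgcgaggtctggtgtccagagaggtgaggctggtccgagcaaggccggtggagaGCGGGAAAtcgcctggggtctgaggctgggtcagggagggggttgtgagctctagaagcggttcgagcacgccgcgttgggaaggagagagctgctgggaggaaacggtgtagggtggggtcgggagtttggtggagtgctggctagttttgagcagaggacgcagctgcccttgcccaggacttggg
Lig1, chr7:13278576-13278875, plus strand: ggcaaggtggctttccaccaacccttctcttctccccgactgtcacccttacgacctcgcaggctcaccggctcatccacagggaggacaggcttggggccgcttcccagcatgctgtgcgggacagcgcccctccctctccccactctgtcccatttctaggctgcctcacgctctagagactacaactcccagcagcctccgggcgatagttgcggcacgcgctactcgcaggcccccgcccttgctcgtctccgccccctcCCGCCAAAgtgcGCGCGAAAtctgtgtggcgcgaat
The match in Cdc6 starts 138 bases upstream of the start, and those in Lig1 begin 14 and 26 bases after it, all on the reverse strand. These letters occurred in 7 of 10 licensing windows and 13 of 33 fork windows (39.4%), against 2.37% of all 32851 windows used. They occurred in 5 of 14 windows of repair genes, 4 of 15 of growth genes, 3 of 30 of spindle genes, 1 of 20 of mitotic genes, 1 of 17 of nucleotide synthesis genes, 1 of 24 of inhibitors and 0 of 17 of the DN3a programme. A match describes letters in a window and is not a binding site.

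Nucleotide synthesis and repair genes were higher as well. Of 19 nucleotide synthesis genes, 15 were at least 2-fold higher, with a median log2 ratio of 1.52. Tk1, thymidine kinase, was at 146 CPM in cycling and 3.90 CPM in low barcodes, a ratio of 5.23 (4.98 to 5.49), and Dhodh, of pyrimidine synthesis, had the lowest ratio, 0.53 (0.28 to 0.76). All 11 measured of 16 repair genes of S phase were at least 2-fold higher, with a median of 3.62. Pclaf had the highest ratio at 626 and 4.26 CPM.

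Mitotic genes had high ratios. Of 23 measured mitotic cyclins, kinases and genes of the anaphase-promoting complex, 22 were at least 2-fold higher, with a median log2 ratio of 5.23. Plk1, a kinase of mitotic entry, was at 71.5 (65 to 78.4) CPM in cycling and 1.21 (0.891 to 1.61) CPM in low barcodes, a ratio of 5.88 (5.44 to 6.35). Ccnb1, cyclin B1, was at 121 and 3.10 CPM, a ratio of 5.28 (5.0 to 5.57). Ube2s, an enzyme of the same complex as Ube2c, was at 668 and 233 CPM, a ratio of 1.52 (1.47 to 1.57). Pttg1, the securin that holds back separase, was the exception, at 22.9 and 28.9 CPM with a ratio of -0.34 (-0.60 to -0.08).

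All 31 measured spindle, kinetochore and cytokinesis genes were at least 2-fold higher, with a median log2 ratio of 4.58. Their ratios ran from 1.73 for Kif18a, a kinesin of chromosome alignment, to 8.32 for Hmmr. Cenpf, a kinetochore protein, was at 182 and 5.32 CPM, a ratio of 5.09 (4.88 to 5.32). Aspm, a protein of the spindle poles, was at 39.1 and 0.413 CPM, a ratio of 6.57 (5.84 to 7.39). Cenpa, the centromeric histone, was at 212 and 23.5 CPM, a ratio of 3.18 (3.05 to 3.30).

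The windows of Hmmr and Aspm are shown as the mitosis genes with the highest ratios among measured ones with a window in the table that holds both CHR letters, read by the MuvB complex, and CCAAT letters, read by NF-Y. Capitals mark TTTGAA or TTCGAA and CCAAT on either strand, which did not overlap here.
Hmmr, chr11:40733388-40733687, minus strand: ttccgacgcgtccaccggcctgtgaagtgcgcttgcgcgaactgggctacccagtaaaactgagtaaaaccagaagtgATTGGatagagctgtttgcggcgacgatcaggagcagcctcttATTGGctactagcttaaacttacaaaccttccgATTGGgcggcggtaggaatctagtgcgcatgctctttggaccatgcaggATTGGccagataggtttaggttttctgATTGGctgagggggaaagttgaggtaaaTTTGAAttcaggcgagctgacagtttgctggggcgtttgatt
Aspm, chr1:139454523-139454822, plus strand: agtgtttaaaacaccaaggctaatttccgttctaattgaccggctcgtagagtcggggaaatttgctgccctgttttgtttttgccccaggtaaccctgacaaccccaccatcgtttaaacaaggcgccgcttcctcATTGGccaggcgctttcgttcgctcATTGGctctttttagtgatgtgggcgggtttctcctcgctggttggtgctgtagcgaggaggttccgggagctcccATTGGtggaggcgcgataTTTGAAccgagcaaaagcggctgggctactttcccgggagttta
In Hmmr the CHR letters begin 8 bases after the start and 5 CCAAT matches lie upstream on the reverse strand, the nearest 20 bases from the start. In Aspm the CHR letters begin 6 bases after the start, with 3 CCAAT matches upstream. CHR letters occurred in 13 of 20 windows of the mitotic list and 25 of 30 of the spindle list, against 19.2% of all windows. They were in 5 of 15 windows of growth genes, 2 of 10 of licensing genes, 6 of 33 of fork genes, 3 of 17 of the DN3a programme, 2 of 14 of repair genes, 1 of 17 of nucleotide synthesis genes and 0 of 24 of cell-cycle inhibitors. CCAAT letters were in 16 of 20 mitotic, 20 of 30 spindle and 8 of 10 licensing windows, against 37.4% of all. They were in 17 of 33 fork, 13 of 24 inhibitor, 9 of 17 nucleotide synthesis and 7 of 14 repair windows. Of growth windows 5 of 15 held them, and 5 of 17 of the DN3a programme. Both kinds of letters together were in 12 mitotic and 19 spindle windows, against 7.52% of all. They were also in 2 licensing, 4 fork and 1 growth windows, and in none of the other lists.

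Chromatin genes were higher in 12 of 13 cases, with a median log2 ratio of 2.41. Hmgb2, a DNA-bending protein of dividing cells, was at 1549.9 CPM in cycling and 155 CPM in low barcodes, a ratio of 3.32 (3.27 to 3.36). H2afz, a histone variant made from polyadenylated RNA, was at 2968 and 626 CPM, a ratio of 2.25 (2.22 to 2.27). Ncapg, a condensin subunit, had the highest ratio, 5.25 (4.84 to 5.70), and Smc4, another, was below 2-fold at 0.28 (0.23 to 0.34). Replication-dependent histone RNAs lack a poly(A) tail and are caught poorly by 3′ libraries, and 18 of 67 were measured. Among those, 10 were at least 2-fold higher and 4 at least 2-fold lower, against 5.8% and 4.59% of all measured genes. Hist1h1b, a linker histone, was at 140.4 and 18.8 CPM, and Hist1h1c, another, at 48.6 and 109 CPM.

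Regulators of the G1 to S transition split by kind. Of 16 measured, 9 were at least 2-fold higher and none 2-fold lower, with a median log2 ratio of 1.49. E2f8, a repressor that acts late in S phase, had the highest ratio, 6.88 (5.87 to 8.12), followed among measured genes by Ccne2, cyclin E2, at 29.6 and 0.774 CPM and a ratio of 5.26 (4.70 to 5.87). Foxm1, the factor for mitotic genes, was at 25.5 and 0.697 CPM. The D cyclins did not share this pattern. Ccnd2 was at 235 CPM in cycling and 365 CPM in low barcodes, a ratio of -0.63 (-0.71 to -0.56), and Ccnd3, the D cyclin used after the pre-TCR signal, at 149 and 166 CPM, a ratio of -0.15 (-0.25 to -0.05). Ccnd1 was near 0 at 1.12 and 1.14 CPM. Cdk6, their kinase partner, was at 635 and 1155 CPM, a ratio of -0.86 (-0.91 to -0.82). With a mean CPM of at least 25 the median of the list was -0.076.

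**Figure D2:**
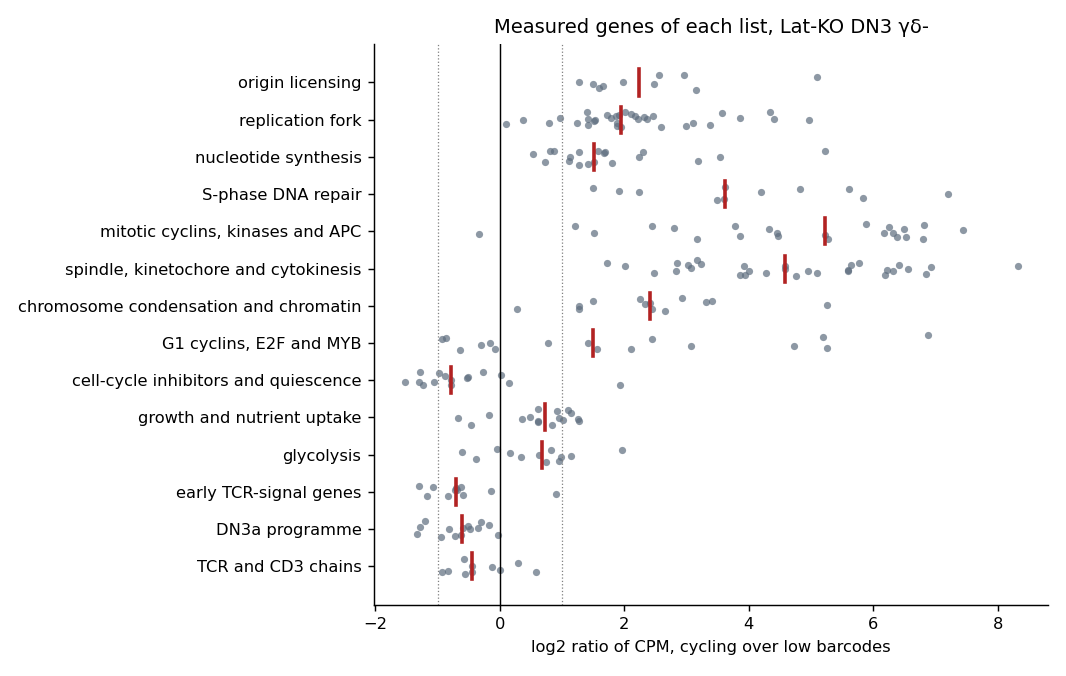
Log2 ratio of CPM, cycling over low barcodes of Lat-KO DN3 γδ-, for the measured genes of 14 lists (points) with the list median (red bar). Dotted lines mark 2-fold, and the medians run from 5.23 for mitotic genes to -0.78 for cell-cycle inhibitors and quiescence genes.

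Inhibitors of the cycle and genes of quiescence were mostly lower in CPM. Of 15 measured genes of 19 listed, 12 had a ratio below 0, beside 4732 of all 7884 measured genes. The median log2 ratio of the list was -0.78. At least 2-fold lower were 5 and at least 2-fold higher 1, against 4.59% and 5.8% of all measured genes. The count of higher genes was near its share. Btg1, an antiproliferative gene of resting lymphocytes, was lowest at 171 CPM in cycling and 494 CPM in low barcodes, a ratio of -1.53 (-1.62 to -1.44). At 2.95 and 3.53 UMIs per barcode, it was among 3 of the 15 genes with fewer UMIs per cycling than per low barcode. Pik3ip1, an inhibitor of PI3 kinase, was at 99 and 243 CPM, a ratio of -1.29 (-1.41 to -1.18). Cdkn1b, the inhibitor p27, was at 47 and 97.3 CPM, a ratio of -1.05 (-1.23 to -0.88). Cdkn1a, the inhibitor p21, was at 70.0 and 120.2 CPM, a ratio of -0.78 (-0.92 to -0.64). The gene that was higher was Cdkn2c, the INK4 inhibitor p18 and an E2F target, at 44.4 and 11.6 CPM with a ratio of 1.93 (1.71 to 2.15). The median of the list was -0.41 against low barcodes weighted to the depth of the members, and 0.27 once the level of B-like barcodes was subtracted from both classes.

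By their medians in CPM, genes of growth and metabolism differed less than those of replication and mitosis. Of 16 measured growth and nutrient uptake genes, 5 were at least 2-fold higher and none 2-fold lower, against 5.8% and 4.59% of all measured genes. The median log2 ratio was 0.73. Hspd1, a mitochondrial chaperone, was at 659 and 273 CPM, a ratio of 1.27 (1.22 to 1.32). Tfrc, the transferrin receptor CD71, was at 36.2 and 17.9 CPM, a ratio of 1.02 (0.80 to 1.24). Myc was at 41.3 and 56.9 CPM, a ratio of -0.46 (-0.65 to -0.27). The glycolysis list had 2 of 12 measured genes at least 2-fold higher, against 5.8% of all, and a median of 0.68. Pfkp, a phosphofructokinase, had its highest ratio, 1.97 (1.64 to 2.30). Of 13 sterol and fatty-acid synthesis genes none was 2-fold higher, with a median of 0.23. The growth median was 0.32 with the same weighting by depth and 2.06 with the B-like level subtracted.

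The programme of DN3a cells, which holds the pre-TCR, the recombinase and Notch targets, was lower in CPM in cycling barcodes. All 14 measured of 15 listed genes had a ratio below 0, beside 4732 of all 7884 measured genes. The median log2 ratio of the list was -0.61, and 3 of its genes were at least 2-fold lower, against 4.59% of all. Ptcra (chr17:46755663-46763712, mm10) was at 462 (446 to 479.5) CPM in cycling, 765 (756 to 774) CPM in low and 279 CPM in B-like barcodes, a ratio of -0.73 (-0.78 to -0.67). Rag1 (chr2:101638282-101649501, mm10), a recombinase subunit, was at 222, 509.8 and 157 CPM in the same order, a ratio of -1.20 (-1.28 to -1.12). In UMIs per barcode Ptcra was at 7.97 in cycling and 5.47 in low barcodes and Rag1 at 3.82 and 3.65. The median of the list was -0.97 with the B-like level subtracted and -0.49 with TMM scaling.

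Among the Notch genes, Notch3 was at 102 CPM in cycling and 249 CPM in low barcodes, a ratio of -1.29 (-1.41 to -1.17). Dtx1, a Notch target, was at 113 and 283 CPM and had the lowest ratio of the list, -1.32 (-1.44 to -1.21). Il2ra, which codes for the CD25 of the sort gate, was at 630.1 and 900.5 CPM, a ratio of -0.52 (-0.56 to -0.47). Tcf7, the T-lineage factor TCF-1, differed least, at 296 and 304 CPM. Dntt, terminal transferase, was at 1721 and 1947 CPM, a ratio of -0.18 (-0.21 to -0.15).

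The coreceptor genes Cd8b1 and Cd8a had no UMI in cycling barcodes, where 3 UMIs correspond to 0.481 CPM, and Cd4 and Trac, the TCR α constant gene, were at 0.641 and 0.321 CPM. These 4 belong to a list of 9 genes named for the αβ stage after selection, which summed to 998 CPM in cycling and 1619 CPM in low barcodes. Arpp21, Dgkeos and Themis made up nearly all of this sum. The paper counts Dgkeos among genes that DN3a cells already express, so the name of the list does not give the stage of these barcodes. Of the 4 measured genes of the list, none was past 2-fold. Arpp21 was at 615 CPM in cycling and 1062 CPM in low barcodes and Dgkeos at 214 and 263 CPM. Themis, a TCR signalling protein of thymocytes, was at 150.5 and 267 CPM, and Spats2 at 17.6 and 25.5 CPM. Of 24 early TCR-signal genes 11 were measured, with a median log2 ratio of -0.70. None of them was 2-fold higher and 3 were at least 2-fold lower, against 5.8% and 4.59% of all measured genes. Id3, an E protein inhibitor that TCR signals induce, was alone in having a ratio above 0 among these 11, at 27.2 CPM in cycling and 14.6 CPM in low barcodes, a ratio of 0.90 (0.64 to 1.15). Cd27, a costimulatory receptor, was at 114 and 240.0 CPM, a ratio of -1.08 (-1.19 to -0.97). Cd69 and Junb were lower, with ratios of -1.16 (-1.33 to -1.0) and -1.30 (-1.36 to -1.24). Cd5 and Nr4a1, targets of TCR signals, were at 2.08 and 1.44 CPM in cycling and 1.91 and 1.32 CPM in low barcodes.

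Receptor chains differed by locus. Trbc1 was at 1192 CPM in cycling and 799 CPM in low barcodes, a ratio of 0.58 (0.54 to 0.61), and Trbc2 at 1858 and 1510.1 CPM, a ratio of 0.30 (0.27 to 0.33). Reads of these near-identical genes may be split between them. The TCR γ constant gene Tcrg-C4 was at 291 and 552 CPM, a ratio of -0.92 (-0.99 to -0.85), and Trdc, of the δ chain, at 24.2 and 24.2 CPM, a ratio of 0.00 (-0.26 to 0.25). The Trdc values leave out UMIs counted for the edited gene with its reporter, a separate feature. The list of TCR and CD3 chains had a median of -0.44 with none of 10 measured genes past 2-fold. The 12 measured TCR signalling genes had a median of -0.60.

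Members carried transcripts of S phase, of mitosis or of both. In the 359 members with at least 4000 UMIs, thinned to that number, the median was 24 UMIs of replication genes (quartiles 12 and 32) and 13 of mitosis genes (4 and 34.5), against 6 and 2 in low barcodes. With the 95th percentile of low barcodes as a bound, 12 and 5 UMIs, 169 members (47.1%, interval 41.8 to 52.4) exceeded both, 96 (26.7%, 22.2 to 31.6) replication alone and 72 (20.1%, 16 to 24.6) mitosis alone. The remaining 22 (6.13%) exceeded neither. Replication UMIs outnumbered mitosis UMIs in 238 members (66.3%) and the reverse held in 119 (33.1%), with 2 equal. A share of mitosis UMIs between 40 and 60% was seen in 53 members (14.8%). Whether the sides are ends of a range or separate types was not tested.

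**Figure D3:**
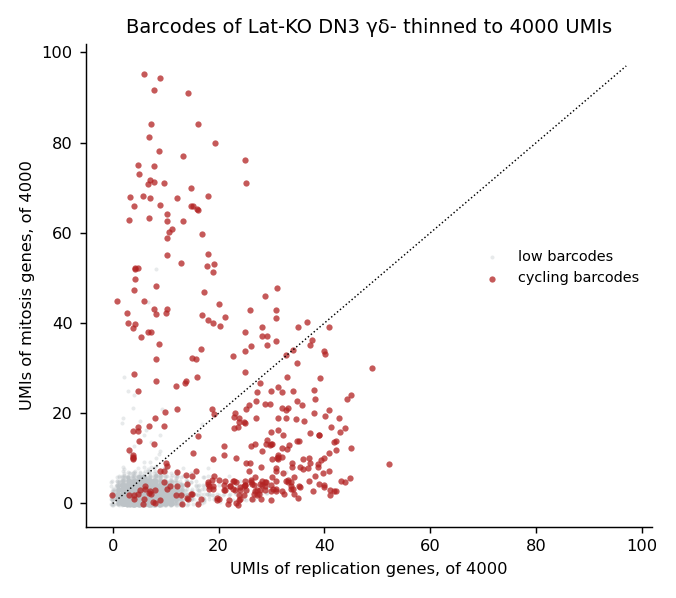
UMIs of 44 replication genes (horizontal) and of 56 mitosis genes (vertical) per barcode of Lat-KO DN3 γδ- thinned to 4000 UMIs, with a small random offset so that points do not hide each other. Cycling barcodes (red) spread along both axes away from low barcodes (grey), with 238 below and 119 above the dotted line of equal UMIs.

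The DN3a programme differed by less than 2-fold between the sides. The 121 members with at least as many mitosis as replication UMIs had a median of 19034 UMIs and the other 238 a median of 15928. The lists that made the split follow from it and are not results. For the DN3a programme the median log2 ratio of the mitosis over the replication side was 0.13, from -0.33 to 0.91, and no gene passed 2-fold. Ptcra was at 449 CPM on the mitosis and 471 CPM on the replication side, a ratio of -0.07 (-0.18 to 0.04), and Rag1 at 249 and 206 CPM, a ratio of 0.28 (0.12 to 0.43). The highest ratio of the list was that of Rag2, the other recombinase subunit, at 0.91 (0.63 to 1.19), and Gata3, a T-lineage factor, was at 0.79 (0.54 to 1.04). Bcl11a, the measured gene of the DN1 and DN2 stage list, was at 3.07 and 18.7 CPM, a log2 ratio of -2.61. Growth genes had a median of -0.43 and glycolysis genes one of -0.52. Chromatin genes had a median of 1.09, with Hmgb2 at 2651 and 913 CPM, a ratio of 1.54 (1.48 to 1.60). Cdkn2c was at 68.4 and 30.7 CPM, a ratio of 1.16 (0.81 to 1.51), and Ccne2 at 10.5 and 40.8 CPM, a ratio of -1.96 (-2.64 to -1.33). Levels of Cdkn2c were thus higher on the mitosis side and those of cyclin E2 on the replication side.

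Cycling barcodes made up 5.75% (interval 5.19 to 6.35) of the kept barcodes of Lat-KO DN3 γδ-. In the same library 2 of 204 B-like barcodes (0.980%), with a median of 3660 UMIs, had 4 or more rule UMIs. Cycling barcodes were 3.80% (3.34 to 4.31) of kept WT DN3a barcodes, 22.7% (21.5 to 23.9) of Lat-KO DN3 γδint and 90.3% (89.8 to 90.7) of WT DN3b γδ-. Of the B-like barcodes of these libraries 0 of 116, 7 of 140 and 97 of 296 had 4 or more rule UMIs. After thinning to 4000 UMIs and with 213 shallower barcodes left out, 193 of 6085 barcodes (3.17%, 2.75 to 3.64) of Lat-KO DN3 γδ- were cycling, against 1.10% in WT DN3a, 17.5% in Lat-KO DN3 γδint and 65.8% in WT DN3b γδ-. No B-like barcode of 84 was cycling after thinning, where 3 barcodes, the limit taken for a count of 0, would be 3.57%. In WT DN3a 0 of 49 were, in Lat-KO DN3 γδint 3 of 40 (7.5%) and in WT DN3b γδ- 68 of 140 (48.6%). The order of the 4 libraries, each a single sample, was the same with and without thinning. The gate on CD71 that separates WT DN3a from DN3b can set the WT shares, while the Lat-KO gates used γδ TCR.

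Barcodes above the bound for mitosis genes but not above that for replication genes were a larger share of the members than of cycling WT DN3a barcodes. They made up 20.1% in Lat-KO DN3 γδ-, 3.38% in WT DN3a (8 of 237 barcodes, interval 1.47 to 6.54), 21.4% in Lat-KO DN3 γδint and 42.3% in WT DN3b γδ-. Bounds came from the low barcodes of each library and were 12 and 4 UMIs in WT DN3a, 20 and 7 in Lat-KO DN3 γδint and 25 and 16 in WT DN3b γδ-. Median UMIs of mitosis genes per cycling barcode, which need no bound, were 13, 5, 22 and 20 in the same order of libraries. In WT DN3a 6.75% of cycling barcodes had more mitosis than replication UMIs, against 33.1% of the members. Rule UMIs, of which Mki67 and Top2a are part, had a median of 7 in cycling WT DN3a barcodes and 16 in the members, and the part of this difference was not tested. The part of the CD71 gate, which was applied to WT DN3a and not to Lat-KO thymocytes, was not tested either.

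**Figure D4:**
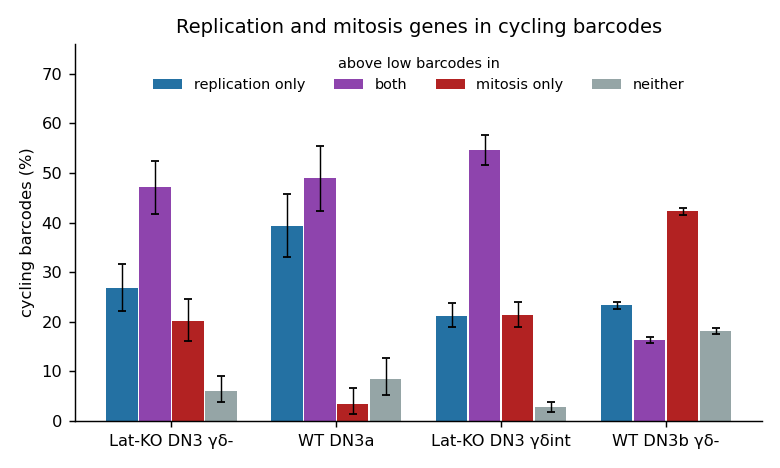
Share of cycling barcodes (%) of 4 libraries, thinned to 4000 UMIs, that exceed the 95th percentile of the low barcodes of their own library in UMIs of replication genes, mitosis genes, both or neither. Error bars are exact binomial intervals for counting error; the share with mitosis alone is 20.1% for Lat-KO DN3 γδ- against 3.38% for WT DN3a.

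Cycling and low barcodes were also compared within each of the other libraries. In WT DN3a 607 of 7366 measured genes (8.24%) were at least 2-fold higher and 554 (7.52%) lower, with list medians of 3.42 for mitotic and -0.92 for DN3a programme genes. In Lat-KO DN3 γδint 458 of 8134 (5.63%) were higher and 502 (6.17%) lower, with medians of 4.05 and -0.70. In WT DN3b γδ- 230 of 7069 (3.25%) were higher and 282 (3.99%) lower, with medians of 2.23 and -0.66. The mitotic medians rest on different genes, with 15 of 24 measured in WT DN3a, 23 in each Lat-KO library and 24 in WT DN3b γδ-. Replication-dependent histones had medians of 1.12 in Lat-KO DN3 γδ-, 0.44 in WT DN3a, -0.28 in Lat-KO DN3 γδint and 1.72 in WT DN3b γδ-. These rest on 18, 19, 16 and 26 measured genes of 67, so on different sets. In Lat-KO DN3 γδint 7 of the 16 were above 0, and all 67 summed to 831 CPM in cycling and 635 CPM in low barcodes. Among the 7212 genes measured in both Lat-KO DN3 γδ- and WT DN3a, 340 were higher in both, 86.7% of the 392 in the former and 59.3% of the 573 in the latter, and 211 lower in both, 72.3% of 292 and 39.1% of 540. Among 7744 genes shared with Lat-KO DN3 γδint, 391 were higher in both, 87.1% of 449 and 94.7% of 413, and 271 lower in both, 80.4% of 337 and 58.3% of 465. Among 6919 shared with WT DN3b γδ-, 200 were higher in both, 44.9% of 445 and 95.7% of 209, and 119 lower in both, 57.5% of 207 and 43% of 277. Cdkn2c, at a ratio of 1.93 in Lat-KO DN3 γδ-, was at 0.28, 2.06 and 1.52 in these 3. The class of low barcodes of WT DN3b γδ- had 778 barcodes and higher levels of mitosis genes, with Plk1 at 7.17 CPM against 1.21 CPM in Lat-KO DN3 γδ-.

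Between cycling barcodes of different libraries, levels were set side by side by the same 2-fold rule. Against WT DN3a, 501 of 7440 genes (6.73%) were higher in the members and 88 (1.18%) lower. Against Lat-KO DN3 γδint these were 279 of 7769 (3.59%) and 48 (0.618%), and against WT DN3b γδ- 652 of 7341 (8.88%) and 108 (1.47%). Ribosomal protein genes took 29.7% of UMIs in cycling barcodes of WT DN3a and 32.8% in those of WT DN3b γδ-. They took 17.3% in cycling barcodes of Lat-KO DN3 γδint against 26.8% in the members. The gap was library-wide, with 19% against 27.7% in low and 19.5% against 29.1% in B-like barcodes. The median of all genes was 0.18, -0.23 and 0.21 in these 3 comparisons, and TMM scaling shifted all ratios down by 0.18 over WT DN3a, up by 0.16 over Lat-KO DN3 γδint and down by 0.35 over WT DN3b γδ-. All 3 comparisons share the members' own values.

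Most genes of the DN3a programme had a ratio above 0 in the members over cycling WT barcodes. Over WT DN3a the median log2 ratio was 0.73, with 11 of 14 genes above 0, beside 4884 of 7440 of all genes. At least 2-fold higher were 3, against 6.73% of all genes. Compared with WT DN3b γδ- the median was 1.43, with 13 of 14 above 0, beside 4860 of 7341 of all genes. There 10 were at least 2-fold higher, against 8.88% of all genes. Tcf7 was below 0 in both, at -0.75 (-0.84 to -0.65) and -0.63 (-0.70 to -0.57), and Hes1, a Notch target, and Gata3 were below 0 over WT DN3a alone, at -0.26 (-0.38 to -0.13) and -0.25 (-0.44 to -0.06). With TMM scaling these medians were 0.56 and 1.08. Ptcra was at 462 CPM in the members, 186 CPM in WT DN3a and 60.6 CPM in WT DN3b γδ-, log2 ratios of 1.31 (1.20 to 1.43) and 2.93 (2.87 to 2.99). Rag1 was at 222, 122 and 32.9 CPM, ratios of 0.86 and 2.75. Notch3 was at 102, 54.6 and 14.2 CPM and Dtx1 at 113, 36.8 and 12.6 CPM. Low barcodes of WT DN3a had 442 (436 to 449) CPM of Ptcra, and the members 462 (446 to 479.5) CPM. The gap to WT was not confined to cycling barcodes. In low barcodes the listed genes summed to 7721 CPM in Lat-KO DN3 γδ-, 6238 CPM in WT DN3a and 3534 CPM in WT DN3b γδ-. In B-like barcodes they summed to 2492, 1448 and 1858 CPM in the same order.

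Against Lat-KO DN3 γδint the DN3a programme had a median of 0.03, or 0.19 with TMM scaling, and no gene passed 2-fold. Ptcra was at 611 CPM there, a ratio of -0.40 (-0.46 to -0.34), and Rag1 at 273 CPM, a ratio of -0.30 (-0.39 to -0.21). Il2ra had a ratio of 0.44 (0.38 to 0.50) and Il7r, the IL-7 receptor, one of 0.84 (0.67 to 1.0). Genes of licensing, fork, mitosis and spindle had medians between -0.49 and -0.33, beside an all-gene median of -0.23.

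Mitotic genes were higher in the members than in cycling WT DN3a barcodes, where licensing and fork genes had medians near 0. WT DN3a were sorted before the rise in CD71 and the Lat-KO gates used γδ TCR, and the part of the gates in this difference was not tested. Against 6.73% of all genes, 20 of 24 mitotic genes were at least 2-fold higher over WT DN3a, with a median of 1.78. Of 31 spindle genes 26 were, with a median of 1.53. Plk1 was at 71.5 CPM in the members and 9.32 (6.53 to 12.9) CPM in WT DN3a, a ratio of 2.94 (2.45 to 3.47). Ccnb1 had a ratio of 2.88 (2.51 to 3.28) and Cenpa one of 2.77 (2.50 to 3.05). Licensing genes had a median of 0.07 and fork genes one of 0.10, above 0 but under the all-gene median, and none of either list was 2-fold higher while 1 fork gene, Rpa3, a subunit of the single-strand binding protein RPA, was lower at -1.58 (-1.78 to -1.38). Over WT DN3b γδ- the mitotic median was -0.02 and the spindle median 0.02, also under the all-gene median. Growth genes had a median of -0.57 with WT DN3a as the reference and of -0.38 with WT DN3b γδ-, and 13 of 15 were below 0 in each. At least 2-fold lower was 1 gene in each, Myc at -1.45 (-1.68 to -1.23) over WT DN3a and Tfrc at -1.01 (-1.20 to -0.82) over WT DN3b γδ-. The shares of all genes at least 2-fold lower were 1.18% and 1.47%. Tfrc was at 36.2 CPM against 40.4 and 72.8 CPM.

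The inhibitor list had a median of 0.42 over WT DN3a, with 3 of 15 genes at least 2-fold higher against 6.73% of all genes. With WT DN3b γδ- as the reference it was 1.16, with 9 of 14 at least 2-fold higher against 8.88%. Low barcodes differed as well, with list sums of 1833 CPM in Lat-KO DN3 γδ-, 1493 CPM in WT DN3a and 667 CPM in WT DN3b γδ-. Cdkn1a was at 70.0 CPM in the members, 29.8 CPM in WT DN3a, 52.9 CPM in Lat-KO DN3 γδint and 8.37 CPM in WT DN3b γδ-. Early TCR-signal genes had no common direction. Over WT DN3a their median was -0.24, with 1 of 13 at least 2-fold higher and 4 lower, against 6.73% and 1.18% of all genes, so that the higher count was near the share of all genes. For WT DN3b γδ- it was 0.81, with 5 of 11 higher and 2 lower, against 8.88% and 1.47%. For Lat-KO DN3 γδint it was 0.00, with 2 of 11 lower, against 0.618%. Id2, an E protein inhibitor like Id3, was at 42 CPM in the members, 28.3 CPM in Lat-KO DN3 γδint, 20.7 CPM in WT DN3a and 5.71 CPM in WT DN3b γδ-, the highest level in the members. Cd5, whose level follows TCR signal strength, was at 2.08 (1.11 to 3.56) CPM in the members and 2.18 CPM in Lat-KO DN3 γδint, against 14 (10.5 to 18.2) CPM in WT DN3a and 11 CPM in WT DN3b γδ-. Id3 was at 27.2, 66.1, 80.5 and 92.3 CPM in the same order. Both genes had their lowest value in the members, with a log2 ratio over Lat-KO DN3 γδint of -0.06 (-1.11 to 0.90) for Cd5. Trdc was at 24.2 CPM in the members and 349.9 CPM in WT DN3a, a ratio of -3.85. The reference also held the edited gene with its reporter as a separate feature, which the paper added to Trdc. That feature took 25.2 CPM in the members and 0 in WT DN3a, so both features together were still lower in the members, by less than this ratio. Cd8b1, at 0 UMIs in the members, had a ratio of -4.59 or below against WT DN3b γδ-, with 3 UMIs in place of 0.

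**Figure D5:**
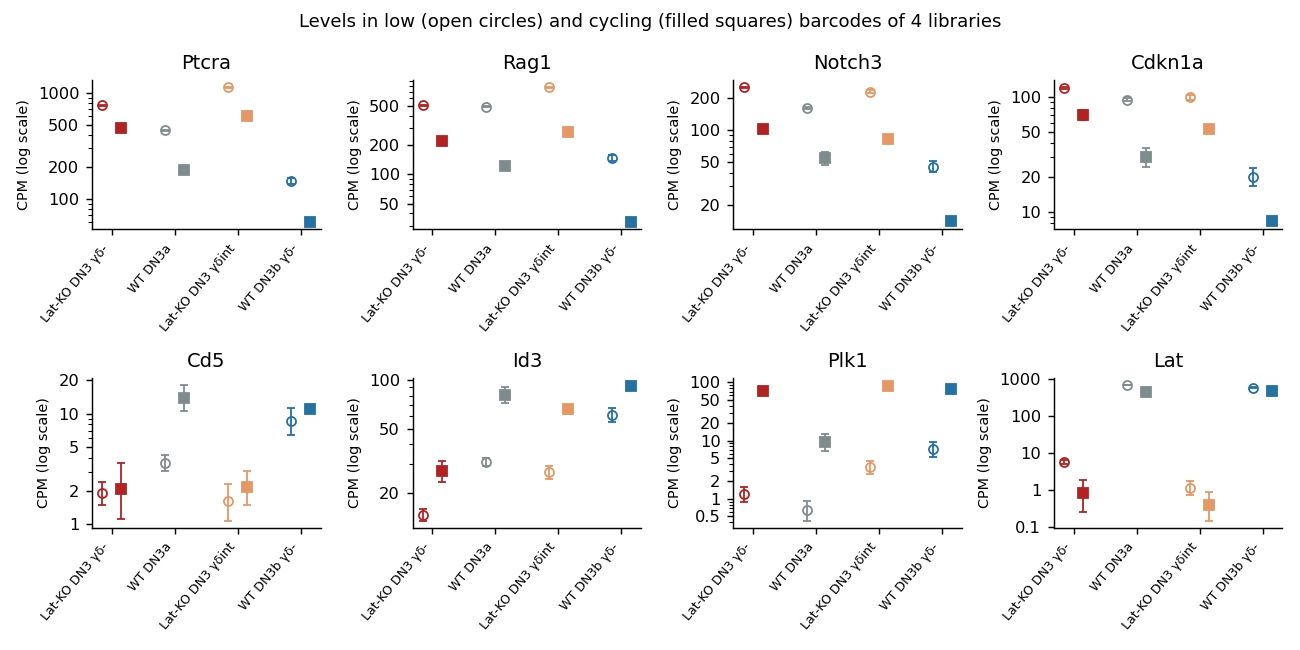
Levels (CPM, log scale) of 8 genes in low barcodes (open circles) and cycling barcodes (filled squares) of 4 libraries, with exact Poisson intervals for counting error. Cycling barcodes of Lat-KO DN3 γδ- (red) lie above those of WT DN3a and WT DN3b γδ- for Ptcra, Rag1, Notch3 and Cdkn1a and below them for Cd5, Id3 and Lat.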

How the data were processed

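UMI counts of 7 droplet 3′ libraries of sorted mouse thymocytes were used, 1 library per group. Per the file headers, the authors made the deposited count matrices with Cell Ranger 4.0.0, while the submitters' processing notes name 5.0.1 with R 3.6.3 and Seurat 3.1.5. The reference was mm10 with the edited reporter gene Trdc-GFP, and the counts were neither scaled nor corrected. Of 32286 features 32235 had a GENCODE gene for positions.

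Barcodes were chosen by the rule at the start of the report in Python 3.11.15 with pandas 2.3.3, and intervals came from scipy 1.17.1. UMIs were summed per class and scaled to CPM. Shares have exact Clopper-Pearson, levels exact Poisson and ratios exact conditional binomial 95% intervals, and a count of 0 entered a ratio as 3 counts. The code for ratios, intervals and TMM was run on simulated counts with counting error only, for genes of at least 10 CPM in low barcodes. Such counts can check the code, but not the spread between barcodes or animals, nor genes rare in low barcodes. Named were the rule genes, the 10 highest and 10 lowest ratios with a mean CPM of at least 25 and at least 10 UMIs in each class, without mitochondrial, ribosomal and predicted genes, and members of fixed lists. The members and lists were chosen with earlier results of these data known. The study removed cell doublets in the sort by light scatter and later left out clusters of doublets of B and T cells. Scrublet (scanpy 1.11.5) marked 2 barcodes by its own threshold, so that the 8% with the highest scores (504 barcodes, 25 of them members) were left out as an alternative. Further alternatives changed scaling, filters, depth, the rule, the reference barcodes and the B cell background. The other 3 WT libraries enter the counts over the whole series only. Promoter windows come from RefSeq (GRCm38.p6). Some members of the lists are not reported here.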

Additional observations from a re-analysis of the deposited data

Results flagged for a closer look

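Listed genes and the 10 highest and 10 lowest were screened for cycling over low ratios of opposite sign in Lat-KO DN3 γδ- and another library. The log2 ratios had to differ by at least 1, both intervals to exclude 0 and both mean CPM to reach 10. Cd28 and Ccnd3 met this rule, each against WT. Lef1 is in none of the lists and was not screened, and its values are given under other observations. Cd28, a costimulatory receptor, was at 25 CPM in cycling and 44.6 CPM in low barcodes of Lat-KO DN3 γδ-, a log2 ratio of -0.83 (-1.08 to -0.60). In WT DN3a it was at 64.2 and 43.8 CPM, a ratio of 0.55 (0.36 to 0.75), and in WT DN3b γδ- at 84.1 and 71.3 CPM, a ratio of 0.24 (0.10 to 0.38). Ccnd3 was at 149 and 166 CPM, a ratio of -0.15 (-0.25 to -0.05) in Lat-KO DN3 γδ-, against 315 and 171 CPM, a ratio of 0.88 (0.80 to 0.97) in WT DN3b γδ-. In Lat-KO DN3 γδint the ratios were -0.52 for Cd28 and 0.05 for Ccnd3. Each group is 1 library, and the differences between libraries were not tested.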

How the results depend on the processing

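No paired analysis was possible because each group is 1 library. Depth differed between the classes, with 37 low barcodes at or above the median depth of the members, so low barcodes weighted to the members' depth rest on few barcodes and use 311 members. Subtracting the B-like level removes genes that B cells share and left 4580 genes. The cause of the other changes was not tested.

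The count of higher genes, 457, was 1799 with no filter on low values and 1218 with the B-like level subtracted. The count of lower genes, 362, was 241 with TMM scaling, 1590 with no filter, 184 at a mean CPM of 25, 720 after thinning and 1105 with the B-like level subtracted. The share of cycling barcodes was 3.17% after thinning and 3.81% with at least 8 rule UMIs. With low barcodes weighted to the members' depth, list medians were 1.80 for licensing, 4.28 for mitotic, 3.99 for spindle, -0.41 for inhibitor, 0.32 for growth and -0.49 for DN3a programme genes. With the B-like level subtracted they were 2.84 for licensing, 5.55 for spindle, 0.27 for inhibitor (the opposite sign), 2.06 for growth and -0.97 for DN3a programme genes. With TMM scaling growth genes were at 0.85 and DN3a programme genes at -0.49. With no filter licensing genes were at 1.99 and growth genes at 0.62. At a mean CPM of 25 mitotic genes were at 4.45, growth genes at 0.84 and G1 regulators at -0.076 (the opposite sign). Equal weight of barcodes gave 4.85 and at least 8 rule UMIs 5.61 for mitotic genes. Thinning gave 5.22 for spindle and -0.77 for DN3a programme genes. The order of list medians changed with the setting, since repair genes were at 5.84 at a mean CPM of 25 and spindle genes exceeded mitotic genes (5.11) after thinning. TMM scaling across cycling classes put the DN3a programme at 0.56 over WT DN3a, 0.19 over Lat-KO DN3 γδint and 1.08 over WT DN3b γδ-. Leaving out barcodes shared with another library, an alternative chosen after seeing the data, gave 453 higher and 364 lower genes. With the barcode filter of the study there were 457 and 364. Over all alternatives, 210 list medians stayed within their counting interval, 61 moved beyond it with the same sign and 2 changed sign. Single genes were followed only where they ranked among the highest or lowest ratios. Of their ratios 202 stayed within the counting interval and 44 moved beyond it with the same sign. These genes were chosen for large ratios, so the lack of a sign change among them says little. Other named genes, such as Ptcra and Rag1, were not in this count.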

Other observations

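Genes outside the pathways above gave further values. Lef1, a partner of TCF-1 at the DN3 stage, was chosen after its values were seen. It was at 111 CPM in cycling and 294 CPM in low barcodes of Lat-KO DN3 γδ-, a log2 ratio of -1.41 (-1.52 to -1.30), and its ratio was 0.43 in WT DN3a, -0.95 in Lat-KO DN3 γδint and 0.52 in WT DN3b γδ-. The differences between libraries were not tested.

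Of 8 measured BCL2 family genes 1 was at least 2-fold lower in cycling than in low barcodes, against 4.59% of all 7884 measured genes, with a median log2 ratio of -0.27. That gene was Mcl1, an inhibitor of apoptosis, at 91.5 and 190.2 CPM, a ratio of -1.06 (-1.18 to -0.93). Bcl2 was at 164 and 237 CPM, a ratio of -0.53 (-0.63 to -0.44), and Bax, which opposes it, at 139 and 137 CPM. Of 8 measured p53 targets 1, Trp53inp1, was at least 2-fold lower at -1.31 (-1.48 to -1.15), and none was 2-fold higher, against 4.59% and 5.8% of all measured genes. A list of genes that the study named for γδ T cells includes some, Clec2d among them, that it also assigned to the αβ TCR. Its 14 genes summed to 171 CPM in cycling, 248 CPM in low and 3618 CPM in B-like barcodes of Lat-KO DN3 γδ-. In WT DN3b γδ- the sums were 133 CPM in cycling and 1598 CPM in B-like barcodes. The part of B cell RNA in the levels of this list was not tested. Of the 14 genes 6 were measured. At least 2-fold lower was 1 of these 6, Clec2d, at -1.05 (-1.27 to -0.84), against 4.59% of all measured genes. Etv5, a factor of the γδ lineage, had no UMI in the members and was at 7.08 CPM in cycling barcodes of WT DN3b γδ-. The 7 of the 14 genes measured against cycling barcodes of WT DN3b γδ-, which leave out Etv5, had a median log2 ratio of 1.07, with 4 at least 2-fold higher in the members and 2 lower, against 8.88% and 1.47% of all genes. Over WT DN3a it was -0.38, with 2 of 8 lower, against 1.18%, and over Lat-KO DN3 γδint 0.56, with 2 of 6 higher, against 3.59%. The list named for the αβ stage after selection, with Dgkeos among its 4 measured genes, had a median of -0.66 for cycling over low barcodes.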
